A study of Mus musculus with 15 samples.

Results

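Junb knockout macrophages were compared with and without lipopolysaccharide (LPS), an outer membrane molecule of Gram-negative bacteria that Toll-like receptor 4 detects. The comparison comprised every array whose title names the knockout: 4 of untreated cells (replicates 1 to 4) and 3 of LPS-treated cells (replicates 2 to 4), 7 of the 15 arrays in the series. All 7 came from bone marrow cells of the genotype Junb-fl/fl Lyz2-Cre+/+ on a C57BL/6 background, cultured for a week with M-CSF (macrophage colony-stimulating factor) and plated in 6-well dishes. LPS was given at 100 ng/ml for 4 h, and the controls received none. Cre was carried in both copies of Lyz2, the lysozyme gene that is active in myeloid cells, so untreated and treated cells alike lacked floxed Junb only where Cre had acted and also carried the altered Lyz2 locus. The other 8 arrays hold wild type C57BL/6 macrophages, 4 untreated and 4 given the same LPS, and served here to test where the response differed. Replicates are separate wells by the series' design text, with nothing on separate mice, so p-values measure the spread between wells, which may be technical.

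LPS binds CD14 and the TLR4-MD-2 complex, and the adaptors MyD88 and TRIF carry the signal to NF-kB, to the mitogen-activated protein (MAP) kinases and to interferon regulatory factors. MAP kinases act in part through AP-1, a family of paired factors of the JUN, FOS, ATF and BATF groups in which JUNB is one partner. Cytokine and chemokine genes respond within hours, secreted interferon beta then switches on antiviral genes through STAT2 and IRF9, and feedback inhibitors damp the signal.

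A value here is the log2 of a probe's processed signal over the 75th percentile of the signals on its array, so 0 marks that percentile. The lowest level set for all arrays, called the floor, was -4.50. The 75th percentile lay between 608.8 and 1481 on the untreated and between 482.8 and 709.3 on the LPS arrays, and 51.02% to 60.5% of the spots were well above background. Untreated replicate 3 stood apart. Its genes deviated from the group mean with an SD of 0.640, against 0.231 to 0.365 on the other 6 arrays. On it 293 genes lay over 4-fold below the median of the other arrays of its group, against 2 to 49 genes on each other array. Values without this array are given for the genes named below whose call it changed or whose called fold it moved by over 1.5 times. It moved counts by at most 2 members in 13 of the 33 gene lists used below. In this it did not stand apart, as each other array moved 14 to 20 lists, by at most 3 members. Without untreated replicate 3 the NF-kB list had 22 rises in place of 20, the AP-1 list 18 in place of 17 and the other pattern recognition receptors 19 in place of 18. All 7 arrays lay on 1 slide with 1 scan. The untreated arrays filled its first row and the LPS arrays its second, so position on the slide and treatment cannot be told apart.

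Junb itself was well above background on none of the 7 arrays, with processed signals between -0.395 and 4.15, and on all wild type arrays, where it rose by 2.54 ± 0.14. Whether its probe lies in the floxed part is not given in the sources used here. Lyz2, which carries Cre in these cells, stood at 0.51, 0.71, 0.61 and 0.82 untreated and 2.10, 1.92 and 2.42 with LPS. The second lysozyme gene, Lyz1, rose by 0.61 ± 0.14, a call that quantile normalisation (0.07) and the submitters' own value table (-0.00088) did not give. The cells carried macrophage markers at a high level. In bulk cultures a change in the cells of a type and a change in RNA per cell cannot be told apart. The surface antigen Adgre1 (F4/80) stood at 8.90, 7.71, 8.27 and 8.63 untreated and 8.72, 9.25 and 8.70 with LPS, the adaptor Tyrobp at 8.41, 7.77, 8.10 and 8.58 and 7.99, 8.13 and 7.99, and the pore-forming Mpeg1 at 8.26, 7.65, 7.94 and 8.17 and 7.80, 7.81 and 7.84. None of these 3 differences passed, except that of Adgre1 without untreated replicate 1 (0.68), while Tyrobp and Mpeg1 fell after quantile normalisation (-0.74 for both). Csf1r, the receptor for M-CSF, stood at 9.13, 8.01, 1.81 and 8.75 untreated and 8.77, 9.11 and 8.67 with LPS. Its value on untreated replicate 3 was the exception, and its difference did not pass (log2 fold change 1.93 ± 1.25, or 0.22 without that array). Its 2 other probes fell, by 0.74 and 0.86, so its direction is unsettled.

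LPS changed the level of 8377 genes in knockout cells. Of the 14192 tested, 4407 rose (31.1%) and 3970 fell (28.0%) at an adjusted p under 0.05 (limma with Benjamini-Hochberg adjustment over all genes), and 5815 did not pass. Among them, 2209 rose and 2268 fell at least 2-fold. Among these calls the untreated and LPS arrays did not overlap for 4186 of the 4407 rises and 3850 of the 3970 falls. A low adjusted p itself favours such separation, and the share over all genes was not counted. The largest changes were mostly rises. At least 8-fold, 424 genes rose and 174 fell, and at least 32-fold, 98 rose and 16 fell. LPS brought 155 genes from background on all untreated arrays to well above background on all LPS arrays and took 243 genes the other way. The median log2 fold change over all genes was 0.165 with a median SE of 0.185. Without untreated replicate 3, 4521 genes rose and 3841 fell. The share of rises depended on how arrays were scaled. It was 52.6% of the calls here, 36.6% after quantile normalisation, where the median over all genes was -0.112, and 35.1% in the deposited value table. Changes near these medians therefore have no settled direction.

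**Figure D1:**
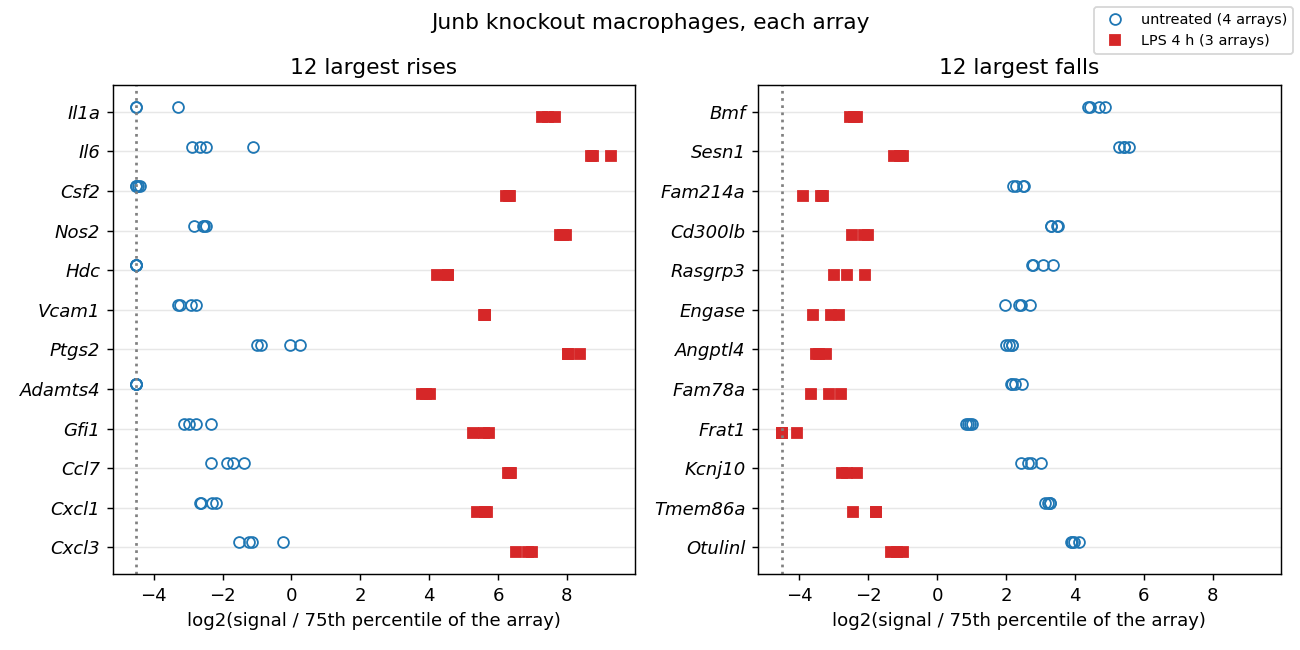
Level of the 12 genes with the largest rises and the 12 with the largest falls, among genes measured above background in both groups, on each array of Junb knockout macrophages, as log2 of the signal over the array's 75th percentile; open circles are the 4 untreated and squares the 3 LPS arrays, and the dotted line is the floor at -4.50. Only genes whose circles and squares do not overlap were ranked, and the rises span up to 11.56 and the falls up to -7.02 log2 units.

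The 12 largest rises and falls were ranked among genes well above background on at least 1 array of each group. Genes whose untreated and LPS arrays overlapped were left out. Of the 12 largest rises, 6 belonged to cytokines and chemokines. Il1a, an alarm cytokine of the interleukin 1 family, stood untreated at -4.50, -3.30 and -4.50, with no value on replicate 3, and with LPS at 7.44, 7.28 and 7.64 (log2 fold change 11.56 ± 0.33, SE, adjusted p = 1.04e-11). Only 1 untreated array was well above background, so the size depends on the floor. Il6, a cytokine that drives the acute phase response, went from -2.67, -1.12, -2.89 and -2.47 to 8.75, 9.29 and 8.69 (11.19 ± 0.37). Csf2, the growth factor GM-CSF, went from -4.50, -4.45, -4.39 and -4.50, well above background on 2 of 4 arrays, to 6.34, 6.31 and 6.24 (10.75 ± 0.18). That every LPS array lay above every untreated array for all 3 cytokines follows from how the 12 were chosen.

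Among the enzymes, Nos2, the inducible nitric oxide synthase, rose from -2.47, -2.56, -2.55 and -2.84 to 7.81, 7.96 and 7.90 (10.49 ± 0.19, adjusted p = 6.15e-14). Ptgs2, the inducible cyclooxygenase of prostaglandin synthesis, rose from -0.89, -0.04, 0.24 and -0.99 to 8.02, 8.38 and 8.02 (8.56 ± 0.27). Hdc, which makes histamine, rose from the floor on all 4 untreated arrays to 4.55, 4.21 and 4.55 (8.94 ± 0.18), and Adamts4, a protease of cartilage matrix, from the floor to 4.03, 3.79 and 3.92 (8.42 ± 0.12). Both were well above background on 1 untreated array. The adhesion molecule Vcam1 went from -3.23, -2.92, -2.77 and -3.30 to 5.62, 5.60 and 5.61 (8.67 ± 0.17, another probe 6.19). The repressor Gfi1 went from -2.97, -2.33, -2.76 and -3.12 to 5.75, 5.27 and 5.60 (8.33 ± 0.20). The chemokines Ccl7 (8.17 ± 0.18), Cxcl1 (8.01 ± 0.15) and Cxcl3 (7.83 ± 0.26) completed the 12 largest rises, with adjusted p of 1.20e-11 or less for these 3.

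Where all untreated arrays were at background and all LPS arrays well above it, the fold has only a lower bound. Shisa3 was at least 643-fold higher with LPS, the granulocyte growth factor Csf3 at least 361-fold and the uridine phosphorylase Upp1 at least 289-fold. Plat, the tissue plasminogen activator, was at least 227-fold higher, the vasoconstrictor endothelin Edn1 at least 150-fold and the interleukin 36 gene Il1f6 at least 148-fold. The hyaluronan synthase Has1 (at least 75.3-fold) and the hyaluronan-binding Tnfaip6 (at least 68.7-fold) followed. These are bounds of the brightest probe of each gene. Another probe of Upp1 gave at least 39.4-fold, and 2 other probes of Tnfaip6 gave at least 16.8-fold and at least 8.46-fold. On the LPS arrays Shisa3 stood at 3.97, 3.76 and 3.96 and Csf3 at 2.74, 2.92 and 3.52.

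The processed signals of 143 genes exceeded 150000 on every LPS array, and 73 of them rose, against 31.1% of all genes. Picking genes by a high signal with LPS favours rises, so this count is no result about bright genes. The highest 75th percentile of the LPS arrays was 1.47 times the lowest. For 141 of the 143 genes the signals spread less than that (median 1.16 times). Il6 lay at 293700 to 303600 and Il1b at 313500 to 356000, while Ccl4 ran from 177900 to 252100 and Cd14 from 196800 to 276700. The 75th percentile by which they are divided ran from 482.8 to 709.3, so the sizes of these rises are less certain. Besides Il6, Il1b and Ptgs2, they include Ccl2, Ccl3, Ccl4, Ccl5, Cxcl10, Gbp2, Ifit1, Ifit3, Isg15, Rsad2, Parp14, Rtp4, Socs3, Acod1, Tnfaip3, Nfkbia, Irf1, Cd14, Clec4e, Ifi204, Mt1, Mt2, Atf4 and Sod2.

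Windows around transcription starts were searched for the letters bound by the factors of this pathway. They run from 250 bases before to 50 bases after the start of a RefSeq gene of build GRCm38.p6. Of the windows of genes that rose at least 4-fold, 11% held the AP-1 motif TGANTCA on either strand, against 4.47% for genes that fell at least 4-fold, 6.0% for all genes tested and 7.81% for every window in the table. The interferon-stimulated response element, a pair of GAAA spaced by 2 bases of any kind, was in 9.76%, 1.22%, 3.35% and 3.44% of the same sets and in 50% of the windows of the interferon-stimulated genes described below. The NF-kB motif, GGG and CC spaced by 5 bases of any kind, was in 63.5% of the windows of risers and 62.5% of those of fallers, near the 63.3% of all genes tested. A stricter form with GGGA and TTCC spaced by 2 bases, which was chosen after these values were seen and which the first form contains, was in 2.53%, 1.49% and 1.48%. The CRE motif TGACGTCA was in 2.87%, 2.03% and 2.82%. A match is a description of the letters and no site of binding.

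Shown are the 250 bases before the start, 5′ to 3′ on the gene's strand, of 8 genes picked because these letters occur there. Capitals mark matches to the AP-1 motif, the stricter NF-kB motif and the interferon-stimulated response element on either strand. Il1a and Il6 had the largest rises. Gbp5, Gbp2, Ifit1 and Isg15 stand for the interferon-stimulated genes and Mmp13 for the proteases. Zfp36l1, with 1 AP-1 match, fell with LPS in knockout and rose in wild type cells.
Il1a (chr2:129309973-129310222, minus strand): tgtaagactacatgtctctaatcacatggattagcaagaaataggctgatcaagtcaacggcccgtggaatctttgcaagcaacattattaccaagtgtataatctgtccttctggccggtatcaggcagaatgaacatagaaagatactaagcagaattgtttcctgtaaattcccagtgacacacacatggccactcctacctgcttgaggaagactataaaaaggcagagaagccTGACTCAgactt
Il6 (chr5:30012864-30013113, plus strand): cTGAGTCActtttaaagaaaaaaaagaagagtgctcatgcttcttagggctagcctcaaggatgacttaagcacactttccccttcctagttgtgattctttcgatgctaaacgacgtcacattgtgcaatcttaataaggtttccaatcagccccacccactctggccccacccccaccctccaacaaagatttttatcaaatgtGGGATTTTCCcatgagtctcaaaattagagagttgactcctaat
Gbp5 (chr3:142496684-142496933, plus strand): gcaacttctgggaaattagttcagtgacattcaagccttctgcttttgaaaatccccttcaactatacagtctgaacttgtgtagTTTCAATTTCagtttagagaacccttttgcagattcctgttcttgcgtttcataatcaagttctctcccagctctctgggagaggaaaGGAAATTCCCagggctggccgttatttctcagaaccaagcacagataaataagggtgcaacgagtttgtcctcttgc
Gbp2 (chr3:142620413-142620662, plus strand): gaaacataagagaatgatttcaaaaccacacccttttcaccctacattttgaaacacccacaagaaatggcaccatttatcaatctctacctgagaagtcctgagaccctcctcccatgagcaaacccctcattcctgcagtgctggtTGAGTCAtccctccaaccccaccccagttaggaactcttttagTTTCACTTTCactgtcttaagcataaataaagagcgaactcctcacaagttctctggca
Ifit1 (chr19:34640639-34640888, plus strand): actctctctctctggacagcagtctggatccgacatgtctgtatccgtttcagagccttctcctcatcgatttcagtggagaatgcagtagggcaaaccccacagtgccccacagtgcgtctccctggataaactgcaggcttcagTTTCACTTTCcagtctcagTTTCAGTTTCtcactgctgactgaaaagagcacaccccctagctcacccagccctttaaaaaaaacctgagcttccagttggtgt
Isg15 (chr4:156200819-156201068, minus strand): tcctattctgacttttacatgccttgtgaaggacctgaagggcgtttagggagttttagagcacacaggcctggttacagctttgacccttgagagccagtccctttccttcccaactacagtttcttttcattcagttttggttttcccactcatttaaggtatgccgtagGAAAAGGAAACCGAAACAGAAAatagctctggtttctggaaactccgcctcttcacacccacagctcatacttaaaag
Mmp13 (chr9:7272264-7272513, plus strand): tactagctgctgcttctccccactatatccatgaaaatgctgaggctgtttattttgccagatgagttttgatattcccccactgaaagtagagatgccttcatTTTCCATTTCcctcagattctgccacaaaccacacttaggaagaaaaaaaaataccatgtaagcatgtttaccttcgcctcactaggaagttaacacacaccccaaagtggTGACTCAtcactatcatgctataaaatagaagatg
Zfp36l1 (chr12:80113014-80113263, minus strand): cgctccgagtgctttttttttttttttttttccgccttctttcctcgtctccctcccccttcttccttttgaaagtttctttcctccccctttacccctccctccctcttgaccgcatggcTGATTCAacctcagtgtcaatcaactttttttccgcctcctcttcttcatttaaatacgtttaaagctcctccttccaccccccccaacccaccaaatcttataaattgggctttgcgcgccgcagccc
Counted from the start, with -1 as the last base before it, the AP-1 match of Il1a begins at -12, that of Mmp13 at -35 and that of Gbp2 at -102. In Isg15 the 3 overlapping matches of the response element begin at -78, -72 and -66, and Ifit1 has 2 that begin at -104 and -85. The stricter NF-kB match begins at -44 in Il6 and at -77 in Gbp5.

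Genes of 26 functional lists were then followed. These lists and 7 lists of markers hold 655 measured genes, and their counts stand against the background of 31.1% rising and 28.0% falling over all genes. Of the genes named for them, Ccl17, Slamf1, Lif and Inava were well above background on 1 of 4 untreated arrays and Il34 on 2 of 4. Each list was drawn up with earlier results of these data known, so its direction is not independent evidence.

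**Figure D2:**
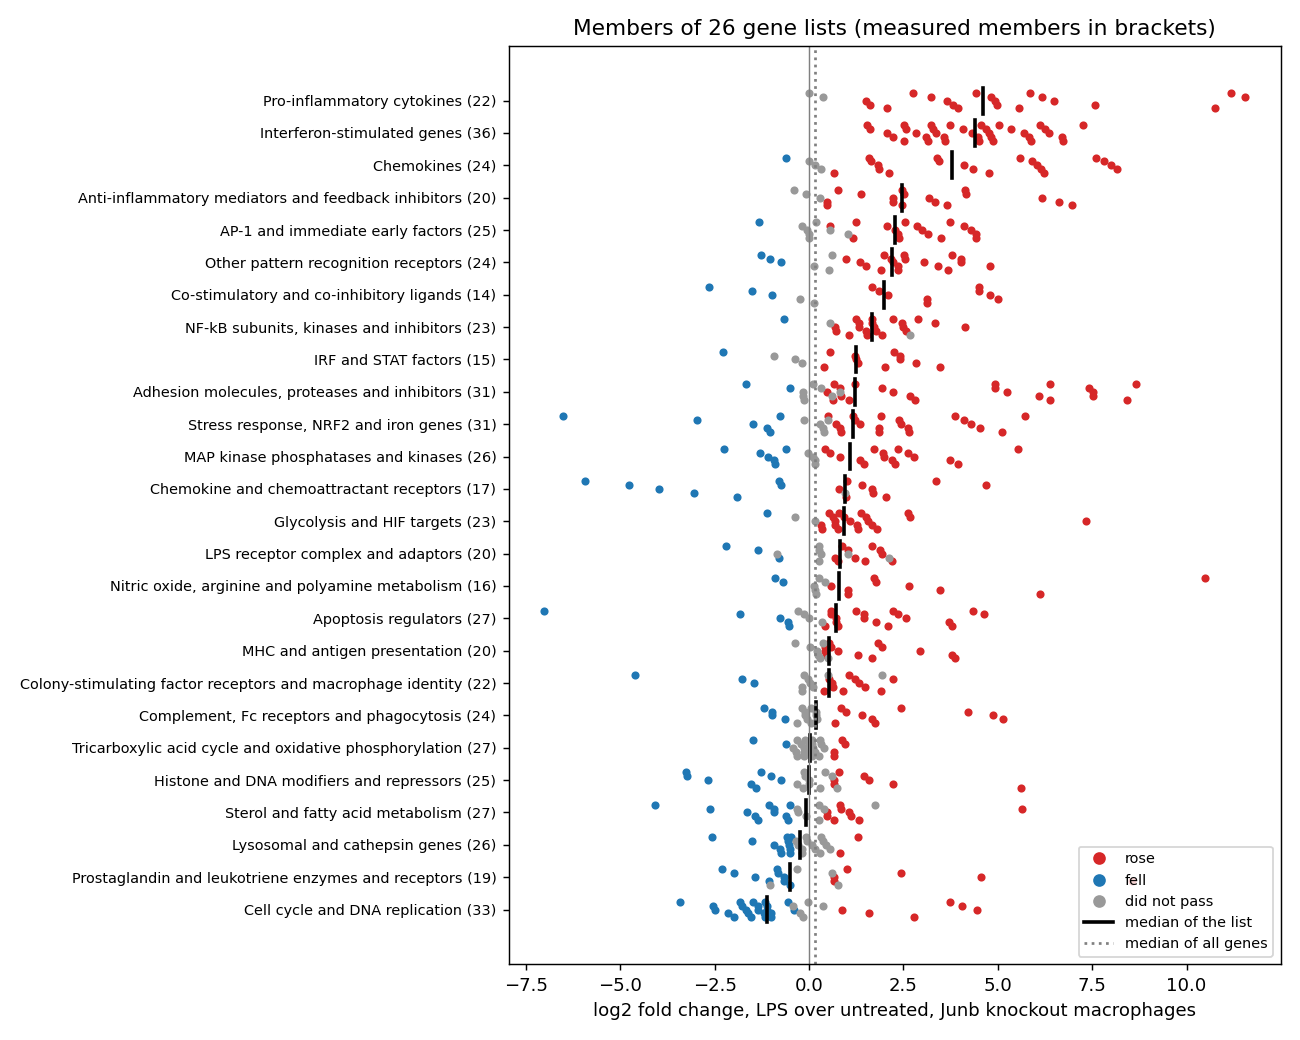
Log2 fold change with LPS in Junb knockout macrophages for the measured members of 26 gene lists, ordered by the list's median (black bar); red points rose, blue points fell and grey points did not pass at an adjusted p of 0.05, and the dotted line is the median of all genes, 0.165. Pro-inflammatory cytokines, interferon-stimulated genes and chemokines have the highest medians, at 4.62, 4.39 and 3.78, and the cell cycle list the lowest, at -1.13.

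Of 20 measured members of the LPS receptor and its adaptors, 10 rose, 3 fell and 7 did not pass, with a median log2 fold change of 0.82. The TRIF-linked adaptor Ticam2 went from -1.57, -1.58, -1.95 and -1.53 to 0.58, 0.22 and 0.82 (2.20 ± 0.23), the adaptor Myd88 rose by 1.88 ± 0.12, the kinase Irak2 by 1.93 ± 0.15 and its inhibitory relative Irak3 by 1.68 ± 0.14. Tlr4 rose by 1.02 ± 0.20 and its partner Ly96 (MD-2) by 1.49 ± 0.16. The falls were those of Irak1 (-0.80 ± 0.13), Irak4 (-1.35 ± 0.10) and Tab1 (-2.19 ± 0.19), a partner of the kinase TAK1. Map3k7, which encodes TAK1, did not pass at 2.12 ± 0.94, with adjusted p of 0.0663, but passed at 0.85 without untreated replicate 3, and at 2.63 and 2.56 without untreated replicate 1 or untreated replicate 2. Its 2 other probes did not pass (0.43 and 0.32). Among 24 measured members of the other pattern recognition receptors, 18 rose, 3 fell and 3 did not pass (median 2.19). The nucleic acid sensors Zbp1 (4.79 ± 0.29) and Ifih1 (4.02 ± 0.18) and the peptidoglycan sensor Nod2 (4.04 ± 0.19) rose most, the inflammasome gene Nlrp3 rose by 3.05 ± 0.19, and Tlr13 (-1.27 ± 0.18, but 0.45 in the deposited value table), Sting1 (-1.03 ± 0.15) and Nlrc4 (-0.75 ± 0.14) fell.

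With a median of 1.66, 20 rose, 1 fell and 2 did not pass among 23 measured members of the NF-kB subunits, kinases and inhibitors. Among the subunits Rel rose by 2.89 ± 0.30, Nfkb1 by 2.48 ± 0.33, Nfkb2 by 2.22 ± 0.21 and Rela by 1.33 ± 0.14. The signalling adaptor Traf1 (4.13 ± 0.20) and the inhibitors Tnfaip3 (3.35 ± 0.19) and Nfkbib (2.56 ± 0.14) rose as well. Traf3, a brake on the alternative NF-kB pathway, fell by 0.65 ± 0.21, a call that was lost without LPS replicate 3 or LPS replicate 4 (-0.61 and -0.56). Ikbke did not pass at 2.67 ± 1.29 and passed at 0.88 without untreated replicate 3.

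The 25 measured members of the AP-1 and immediate early factors had a median of 2.28, and 17 rose, 1 fell and 7 did not pass. Batf2 rose most, from 0.06, 0.13, 0.21 and -0.20 to 4.80, 4.33 and 4.31 (4.43 ± 0.23). Fosl1, a FOS relative, went from -4.13, -3.57, -3.76 and -4.10 to 0.24, 0.21 and 0.71 (4.28 ± 0.19), and Batf from 0.02, 0.14, -0.06 and 0.18 to 3.88, 3.64 and 3.85 (3.72 ± 0.15). Egr2, an early zinc finger factor, went from 0.60, 0.75, 1.15 and -0.02 to 5.16, 5.11 and 4.86 (4.42 ± 0.28). Of the JUN genes, Jund rose by 1.18 ± 0.22, while Jun was at the margin, with 0.55 ± 0.22 and adjusted p of 0.045, and lost its call without any of 6 arrays (0.45 to 0.61). Fos, which peaks early after stimulation, was lower at 4 h, at 4.22, 4.12 and 4.21 against 5.51, 5.38, 5.68 and 5.42 (-1.31 ± 0.14). Atf3 stood at 4.29, 4.53, 4.59 and 4.63 and 4.46, 4.23 and 4.69 (-0.05 ± 0.14) and Batf3 at -1.78, -1.41, -1.77 and -1.52 and -1.75, -2.09 and -1.57 (-0.18 ± 0.22). Neither passed, although Atf3 fell after quantile normalisation (-0.54), whereas in wild type cells their values were 1.40 ± 0.13 and 1.55 ± 0.21, and the differences of -1.45 ± 0.18 (adjusted p = 0.000262) and -1.73 ± 0.31 (adjusted p = 0.00277) did pass.

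Of 15 measured members of the IRF and STAT factors, 11 rose, 1 fell and 3 did not pass, with a median log2 fold change of 1.23. Irf7 rose by 3.47 ± 0.23, Stat5a by 2.42 ± 0.12, Stat2 by 2.25 ± 0.17 and Stat3 by 2.0 ± 0.25. After quantile normalisation 9 of the list rose and 3 fell, among them Irf3 (-0.65) and Stat6 (-0.87). The deposited value table gave 5 rises and 3 falls among 10 members. Irf8, which directs monocyte and dendritic cell development, was the only fall in the first count. It also fell with both alternatives (-2.66 and -2.68). It stood at 4.86, 4.98, 5.02 and 5.02 untreated and 2.85, 2.30 and 2.93 with LPS (-2.27 ± 0.15, adjusted p = 1.25e-08), and no LPS array reached the untreated range.

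Among 22 measured members of the pro-inflammatory cytokines, 20 rose and 2 did not pass (median 4.62). No member fell. Tnf, an early cytokine of inflammation, went from 1.60, 2.30, 1.91 and 1.95 to 6.94, 6.70 and 7.07 (4.97 ± 0.16). Csf1, the growth factor in which the cells had been grown, went from -2.04, -1.84, -1.48 and -1.77 to 4.18, 3.89 and 4.16 (5.86 ± 0.13, other probes 4.52 and 3.96). Interferon beta, Ifnb1, was at the floor on all untreated arrays and at -0.06, -0.10 and -0.08 with LPS, at least 40.8-fold higher. The death ligand Tnfsf10 (TRAIL) rose by 6.17 ± 0.24, the T cell cytokine gene Il27 by 6.48 ± 0.19, Il15 by 5.57 ± 0.16, Il18 by 3.95 ± 0.21, the IL-12 subunit Il12a by 2.77 ± 0.26 and the IL-23 subunit Il23a by 3.23 ± 0.16. Il12a and Il23a were also at background on all untreated arrays, and their bounds were at least 13-fold and 17.9-fold. Lif (0.00 ± 0.64), a relative of Il6, and Ltb (0.36 ± 0.23), a lymphotoxin subunit, did not pass.

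With a median of 3.78, 20 rose, 1 fell and 3 did not pass among 24 measured members of the chemokines. The monocyte attractant Ccl2 went from 0.39, 0.99, 0.80 and 0.65 to 8.23, 8.45 and 8.27 (7.61 ± 0.19), and the neutrophil attractants Cxcl2 and Cxcl5 rose by 6.15 ± 0.19 and, from background, by 4.76 ± 0.13 (at least 49.5-fold). Cxcl9, an attractant of activated T cells, rose by 6.21 ± 0.21. Ccl17, which recruits T cells through CCR4, went from -4.50 on all 4 arrays to 1.30, 1.30 and 1.64 (5.92 ± 0.13). Cxcl14 alone fell here (-0.62 ± 0.18), while after quantile normalisation 19 of the chemokines rose and 3 fell. The 17 measured members of the chemoattractant receptors had a median of 0.96, and 9 rose, 7 fell and 1 did not pass. Ccrl2 (4.68 ± 0.17), the platelet-activating factor receptor Ptafr (3.35 ± 0.16) and the formyl peptide receptor Fpr2 (2.05 ± 0.16) rose, while Cxcr4 went from 2.92, 3.22, 3.06 and 2.98 to -1.77, -1.56 and -1.83 (-4.77 ± 0.12) and Cx3cr1, the fractalkine receptor of resident macrophages, from 7.42, 6.92, 7.46 and 7.38 to 3.47, 3.36 and 3.1 (-3.98 ± 0.19, another probe -5.01). Gpr183, the oxysterol receptor, fell at least 66.4-fold to background.

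Of 20 measured members of the anti-inflammatory mediators and feedback inhibitors, 17 rose and 3 did not pass, with a median log2 fold change of 2.46. The cytokine signalling inhibitors Socs1 (6.96 ± 0.21), Cish (6.17 ± 0.18) and Socs3 (4.16 ± 0.21) and the interleukin 1 receptor antagonist Il1rn (6.62 ± 0.25) rose most. Il10, the main anti-inflammatory cytokine of macrophages, went from -0.62, -0.49, -0.54 and -0.46 to 3.09, 3.11 and 3.17 (3.65 ± 0.13). The RNA decay factors Zc3h12a and Zfp36 rose by 3.34 ± 0.25 and 2.52 ± 0.26, and the checkpoint ligand Cd274 (PD-L1) by 4.13 ± 0.11.

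**Figure D3:**
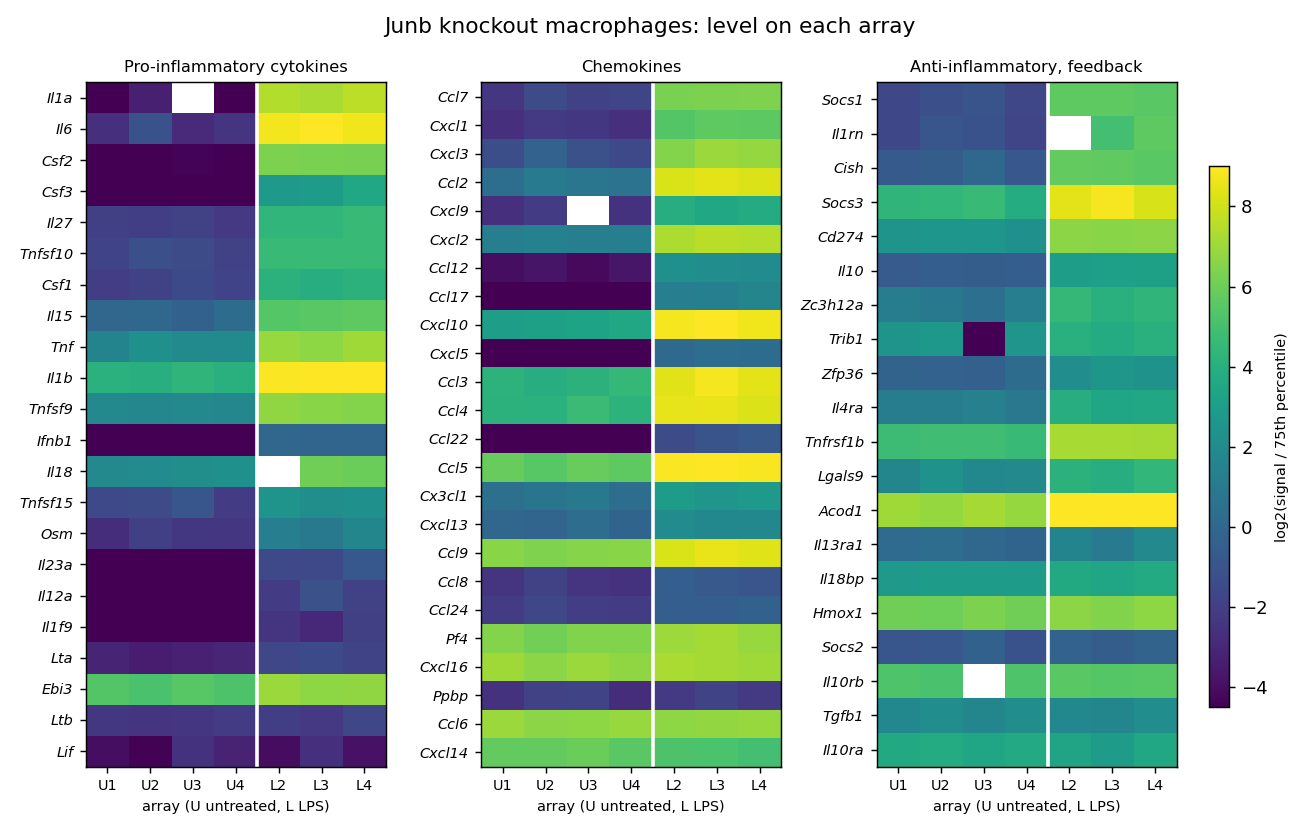
Level of the measured pro-inflammatory cytokines, chemokines and anti-inflammatory genes on each array of Junb knockout macrophages (columns; U untreated, L with LPS, with the replicate number), as log2 of the signal over the array's 75th percentile from dark (-4.50, the floor) to yellow (9); white cells have no value. Genes are ordered by log2 fold change; the top rows turn from dark on the untreated to bright on the LPS arrays, as Il1a, Ccl7 and Socs1 do.

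All 36 measured members of the interferon-stimulated genes rose, with a median log2 fold change of 4.39. The guanylate-binding protein Gbp5 went from -2.06, -2.0, -0.94 and -1.94 to 5.64, 5.56 and 5.38 (7.26 ± 0.22), the nucleotide kinase Cmpk2 from 0.75, 1.28, 1.23 and 1.12 to 7.81, 7.83 and 7.78 (6.71 ± 0.19) and the antiviral Oasl1 from 1.36, 1.42, 1.26 and 1.52 to 7.82, 7.69 and 7.76 (6.36 ± 0.18). Gbp2 rose by 6.72 ± 1.19, but its value on untreated replicate 3 was -3.32 against 3.21, 3.46 and 3.0 on the others, and the rise was 5.09 without that array and 7.35 without untreated replicate 2. The smallest rises were those of Bst2 (1.54 ± 0.15) and Trim25 (1.62 ± 0.19). All 36 also rose after quantile normalisation. Of the list, 11 members had a higher response than in wild type cells and none a lower one, against 2.50% and 7.87% over all genes. Among them Ifit1, Ifit3, Isg15 and Rsad2 lay at the bright end of the arrays.

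With a median of 1.08, 16 rose, 6 fell and 4 did not pass among 26 measured members of the MAP kinases and their phosphatases. Dusp2 (5.54 ± 0.19), Dusp16 (3.94 ± 0.13) and the signalling inhibitor Spry1 (3.75 ± 0.26) rose most, and the stress kinase phosphatase Dusp1 rose by 2.62 ± 0.18. Dusp7 (-2.26 ± 0.21), Dusp3 (-1.31 ± 0.18) and Mapk14, the p38 kinase (-1.09 ± 0.15, but 0.40 in the deposited value table), fell most. In 8 members the response was lower and in 1 higher than in wild type cells, against 7.87% and 2.50% over all genes. Other lists tilted too, with 7 lower and 2 higher in the adhesion list and 5 higher and 0 lower among chemokines. Dusp5 was among the 8, with 2.79 ± 0.18 against 5.08 ± 0.17 (difference -2.29 ± 0.25). It rose from background on the untreated knockout arrays, at least 10.4-fold. Dusp6 gave -0.94 ± 0.23 against 1.07 ± 0.21 (difference -2.01 ± 0.31).

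The 19 measured members of the prostaglandin and leukotriene genes had a median of -0.50, and 6 rose, 9 fell and 4 did not pass. Besides Ptgs2, the prostaglandin E synthase Ptges rose from 5.21, 5.12, -1.80 and 5.23 to 7.98, 8.12 and 7.91 (4.57 ± 1.26). Its rise was 2.82 without untreated replicate 3 and 5.16 without untreated replicate 1 or untreated replicate 4. Another probe of Ptges gave 5.54 ± 0.19, so the size is unsettled. The phospholipase Pla2g4a rose by 2.43 ± 0.19. The receptor Ptger4 (-2.29 ± 0.21), the PGD2 synthase Hpgds (-1.98 ± 0.22) and the constitutive cyclooxygenase Ptgs1 (-1.42 ± 0.26) fell most. Of 16 measured members of the arginine and nitric oxide genes, 9 rose, 2 fell and 5 did not pass, with a median log2 fold change of 0.80. After Nos2, the arginine transporter Slc7a2 rose by 6.11 ± 0.14 and Gch1, which makes the cofactor of the synthase, by 3.48 ± 0.16. Asl (-0.89 ± 0.14) and Oaz2 (-0.68 ± 0.20) fell.

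Among 23 measured members of the glycolysis and hypoxia factor genes, 20 rose, 1 fell and 2 did not pass (median 0.94). The vasodilator peptide gene Adm went from -2.85, -2.53, -2.53 and -2.80 to 4.64, 4.58 and 4.73 (7.33 ± 0.17). The glycolytic activator Pfkfb3 rose by 2.68 ± 0.18 and the phosphofructokinase Pfkp by 2.63 ± 0.15, while the muscle isoform Pfkm fell (-1.12 ± 0.14). After quantile normalisation 13 of the list rose and 4 fell. With a median of 0.03, 4 rose, 2 fell and 21 did not pass among 27 measured members of the citric acid cycle and respiration genes. Idh1 fell most (-1.48 ± 0.14). This list followed the scaling, with 1 rise and 20 falls after quantile normalisation and a median of -0.495. The 27 measured members of the sterol and fatty acid genes had a median of -0.09, and 9 rose, 11 fell and 7 did not pass. Ch25h, which makes the antiviral 25-hydroxycholesterol, rose from -1.06, -0.84, -0.53 and -0.82 to 4.85, 4.57 and 5.02 (5.63 ± 0.24). The desaturase Scd2 went from 3.05, 3.31, 3.24 and 2.92 to -0.81, -1.10 and -0.95 (-4.08 ± 0.15), the last cholesterol enzyme Dhcr7 fell by 2.62 ± 0.18 to background (at least 7.1-fold) and the elongase Elovl6 by 1.64 ± 0.19.

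Of 20 measured members of the antigen presentation genes, 13 rose and 7 did not pass, with a median log2 fold change of 0.52. The class I regulator Nlrc5 (3.86 ± 0.14, another probe 1.59) and the peptide transporters Tap1 (3.78 ± 0.19) and Tap2 (2.93 ± 0.12) rose most, and 7 rose and 3 fell after quantile normalisation. Among 14 measured members of the ligands that meet T cells, 9 rose, 3 fell and 2 did not pass (median 1.97). Cd40 went from 2.93, 2.80, 3.03 and 2.66 to 8.00 and 7.72, with no value on replicate 2 (5.01 ± 0.21), Slamf1 rose by 4.80 ± 0.22 and Cd69 by 4.50 ± 0.15. The inhibitory Vsir (-1.50 ± 0.14) and Pdcd1lg2 (PD-L2, -0.99 ± 0.16) fell. Cd80 gave -2.65 ± 0.34 on its brighter probe and 1.20 on another, so its direction is unsettled.

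With a median of 1.22, 22 rose, 2 fell and 7 did not pass among 31 measured members of the adhesion molecules, proteases and inhibitors. After Vcam1 and Adamts4 the serpin Serpinb2 went from -3.25, -1.60, -4.50 and -4.50 to 3.86, 4.19 and 4.12 (7.52 ± 0.52), or 8.14 without untreated replicate 2. The coagulation starter F3 rose by 7.52 ± 0.15 (another probe 2.71) and the collagenase Mmp13 by 7.41 ± 0.15. Timp2 (-1.66 ± 0.30, another probe -0.35, not passed), an inhibitor of metalloproteinases, fell. The 24 measured members of the complement and Fc receptor genes had a median of 0.19, and 10 rose, 4 fell and 10 did not pass. The scavenger receptor Olr1 rose by 5.13 ± 0.29, the inhibitory Fc receptor Fcgr2b by 4.88 ± 0.15 and complement factor B, Cfb, by 4.21 ± 0.15. The endocytic receptor Stab1 (-1.20 ± 0.14), the lipoprotein receptor Scarb1 (-0.98 ± 0.18) and the phosphatidylserine bridge Gas6 (-0.97 ± 0.14) fell most, and after quantile normalisation 8 rose and 10 fell.

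Of 31 measured members of the stress and iron genes, 20 rose, 6 fell and 5 did not pass, with a median log2 fold change of 1.16. The siderophore binder Lcn2 (5.73 ± 0.14), the cystine transporter Slc7a11 (5.12 ± 0.20) and Chac1 (4.52 ± 0.29), which breaks down glutathione, rose most. The iron exporter Slc40a1 (-2.97 ± 0.16) and Gclm (-1.48 ± 0.17), a subunit of the glutathione-making ligase, fell. Among 27 measured members of the apoptosis regulators, 18 rose, 5 fell and 4 did not pass (median 0.71). After quantile normalisation 13 of these regulators rose and 9 fell (median 0.377). The necroptosis effector Mlkl (4.63 ± 0.37), the NOD kinase Ripk2 (4.33 ± 0.14) and the caspase 8 inhibitor Cflar (3.79 ± 0.14) rose most, and Casp9 fell by 1.82 ± 0.18. With a median of -0.01, 7 rose, 8 fell and 10 did not pass among 25 measured members of the chromatin modifiers. The histone demethylase Kdm6b went from -2.96, -2.26, -2.52 and -2.58 to 2.97, 2.96 and 3.15 (5.60 ± 0.18) and the DNA demethylase Tet2 rose by 2.21 ± 0.15. The methyltransferases Setd7 and Dnmt1 fell, Setd7 by 3.26 ± 0.19 and Dnmt1 from 0.11, 0.42, 0.39 and 0.27 to -2.92, -3.02 and -2.87 (-3.23 ± 0.18).

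The largest fall with LPS was that of Bmf, a pro-apoptotic BCL2 relative. It went from 4.70, 4.43, 4.87 and 4.38 untreated to -2.53, -2.40 and -2.34 with LPS (-7.02 ± 0.45, adjusted p = 1.09e-08). Sesn1, a stress-inducible inhibitor of growth signalling, went from 5.58, 5.28, 5.43 and 5.42 to -0.99, -1.24 and -1.07 (-6.53 ± 0.14). Both left the upper range of the array for values below its 75th percentile. Cd300lb, a myeloid receptor, went from 3.31, 3.53, 3.48 and 3.29 to -2.0, -2.47 and -2.13 (-5.60 ± 0.15), and Rasgrp3, an activator of RAS, from 3.06, 2.80, 3.37 and 2.75 to -2.10, -2.61 and -3.0 (-5.57 ± 0.22). Angptl4, an inhibitor of lipoprotein lipase, went from 2.18, 2.01, 2.18 and 2.10 to -3.23, -3.43 and -3.51 (-5.51 ± 0.13).

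The other falls among the 12 largest were those of Fam214a (-5.91 ± 0.22, well above background on 2 of 3 LPS arrays), Engase (-5.54 ± 0.18), which trims glycans, Fam78a (-5.46 ± 0.23), Frat1 (-5.28 ± 0.24, on 1 of 3 LPS arrays), an activator of WNT signalling, the potassium channel Kcnj10 (-5.28 ± 0.52), Tmem86a (-5.24 ± 0.18) and Otulinl (-5.14 ± 0.17). All 12 had adjusted p of 8.00e-07 or less, and genes at background on all LPS arrays were ranked apart from them. Of the genes that went to background on all LPS arrays, Gpr183 is given above. The lower bounds of the other 7 were a 64.9-fold fall for Rassf3, with Mblac2 at 34.7-fold, Etl4 at 23.9-fold, the peroxisomal transporter Abcd2 at 23.6-fold, Zkscan4 at 19.4-fold, Ttc30b at 18.9-fold and Zfp810 at 18.8-fold. Of 2 other probes of Etl4, 1 also went to background, with a fall of at least 17-fold, and 1 did not pass at a log2 fold change of -1.19.

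The 33 measured members of the cell cycle and replication genes had a median of -1.13, and 6 rose, 22 fell and 5 did not pass. E2f2, a driver of S phase, went from 2.24, 2.03, 2.92 and 1.84 to -1.20, -1.37 and -0.95 (-3.43 ± 0.36), the replication helicase subunits Mcm7 and Mcm2 fell by 2.55 ± 0.19 and 2.48 ± 0.15, and cyclin A2, Ccna2, fell by 1.99 ± 0.14. The cell cycle inhibitor Cdkn1a (p21) gave 4.06 ± 0.34 on its brightest probe and -0.19 on another, so its rise is unsettled, and Ccne1 rose by 3.72 ± 0.16 (another probe 2.13). Mki67, a marker of dividing cells, went against the list, at 2.65, 2.55, -1.77 and 2.19 untreated and 5.93, 5.83 and 5.84 with LPS (4.46 ± 0.77, or 3.40 without untreated replicate 3, and 3.31 on another probe). The list had 5 rises and 22 falls after quantile normalisation.

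Of 22 measured members of the colony-stimulating factor receptors and macrophage identity genes, 11 rose, 3 fell and 8 did not pass, with a median log2 fold change of 0.52. Cebpa, a factor of myeloid differentiation, went from 2.23, 2.37, 2.30 and 2.13 to -2.23, -2.52 and -2.29 (-4.60 ± 0.17). Mertk, the receptor for apoptotic cells, went from 2.37, 2.49, 2.48 and 1.88 to 1.17, 0.49 and 0.86 (-1.47 ± 0.20). Timd4 (2.22 ± 0.15) and the high-affinity Fc receptor Fcgr1 (1.92 ± 0.17) rose. After quantile normalisation 6 of the list rose and 8 fell. Among 26 measured members of the lysosomal genes, 2 rose, 11 fell and 13 did not pass (median -0.25). Tfeb, the factor that drives lysosome formation, went from -0.28, -0.08, -1.26 and 0.09 to -2.64, -3.48 and -2.69, at background with LPS (-2.56 ± 0.32, at least 5.89-fold lower), the acid lipase Lipa fell by 1.50 ± 0.28, and cathepsin C, Ctsc, rose by 1.29 ± 0.13. After quantile normalisation 1 rose and 19 fell.

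**Figure D4:**
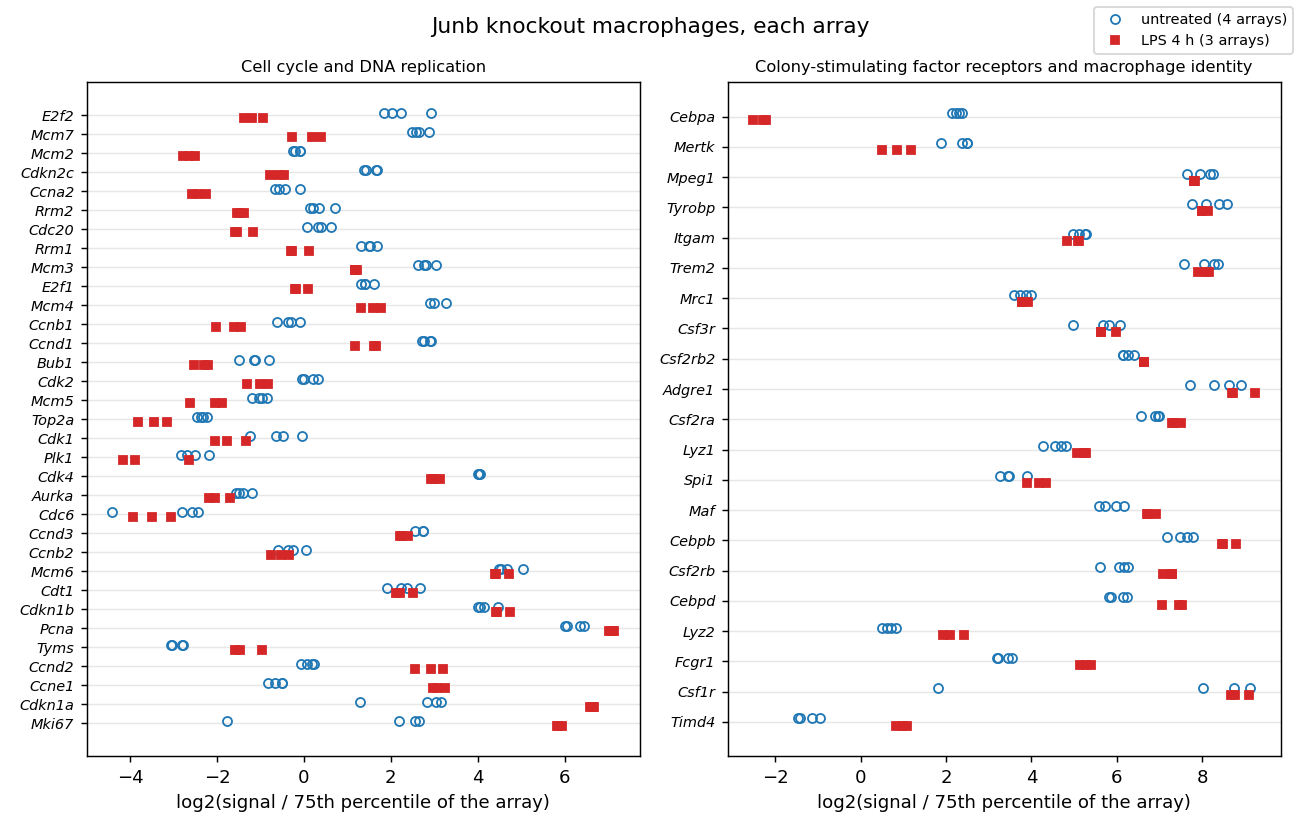
Level of measured cell cycle genes (left) and of colony-stimulating factor receptors and macrophage identity genes (right) on each array of Junb knockout macrophages, as log2 of the signal over the array's 75th percentile; open circles are the 4 untreated and squares the 3 LPS arrays, with genes ordered from the largest fall at the top. Squares lie left of circles for E2f2, Mcm7 and Cebpa, and single circles of untreated replicate 3 stand apart for Mki67 and Csf1r.

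Of 321 RefSeq noncoding RNAs tested, 88 rose (27.4%) and 72 fell (22.4%), against 31.1% and 28.0% of all genes. U90926 went from -4.50, -3.49, -4.50 and -4.50 to 2.58, 2.74 and 3.08 (7.05 ± 0.22), Morrbid from -2.39, -2.87, -2.26 and -3.37 to 2.39, 2.23 and 2.28 (5.02 ± 0.29) and Gm15348 from 0.67, 0.47, 0.75 and 0.35 to 4.20, 3.85 and 3.83 (3.40 ± 0.25). Il1bos, antisense to Il1b, rose by 3.88 ± 0.45 and Zfp133-ps by 3.11 ± 0.93. Gm6524 stood at 3.46, 3.33, -3.75 and 3.13 and 5.37, 5.28 and 5.20 (3.75 ± 1.28), a rise that was 1.98 without untreated replicate 3 and lost its call without LPS replicate 2 (3.70) or LPS replicate 3 (3.75). Without untreated replicate 1 or untreated replicate 2 it was 4.38 and 4.34. F630028O10Rik (-3.87 ± 0.21), 2610035D17Rik (-2.98 ± 0.17), Rnf227 (-2.96 ± 0.26), 5031434O11Rik (-2.89 ± 0.23), Pisd-ps3 (-2.82 ± 0.19) and 4933439C10Rik (-2.71 ± 0.19) fell most.

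Of the 4407 rises and 3970 falls in knockout cells, 3626 and 3045 were also called in the same direction in wild type cells. The share of all genes called in wild type cells was not counted, so this overlap has no background to compare with. The difference of the 2 responses, tested as an interaction in the same model, passed for 355 genes with a higher (2.50%) and 1117 with a lower value (7.87%) in knockout cells. Of the higher ones, 252 had risen and 63 had fallen in knockout cells, and of the lower ones 368 had risen and 504 had fallen. Without LPS replicate 3 the lower responses numbered 654. Knockout and wild type arrays lay on different slides. Knockout cells also differed by Cre in Lyz2. Ddx3y, a gene of the Y chromosome, was well above background on all 7 knockout and on none of the wild type arrays. These differences and Junb loss cannot be told apart.

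**Figure D5:**
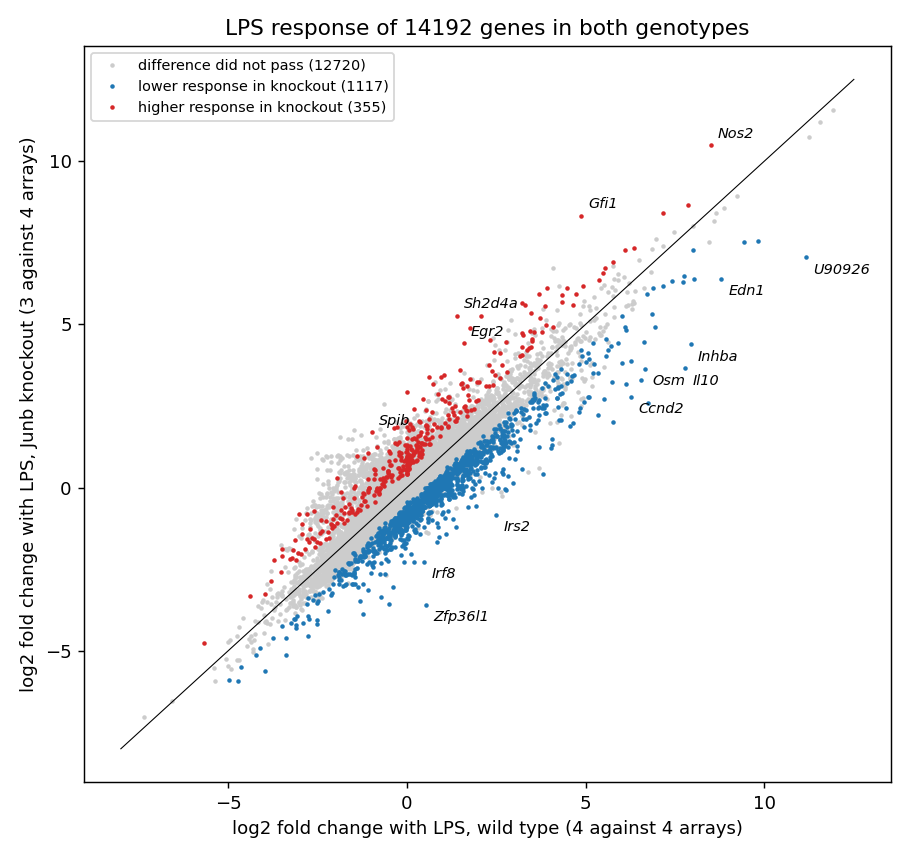
Log2 fold change with LPS in wild type (horizontal) and Junb knockout macrophages (vertical) for 14192 genes; the line marks equal responses, and colours mark genes whose difference passed at an adjusted p of 0.05. Most genes lie along the line, with 1117 lower (blue, such as Il10 and Zfp36l1) and 355 higher responses (red, such as Gfi1 and Sh2d4a) in knockout cells.

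Of the 8 largest lower responses, 6 were rises in both genotypes. Csta2, a cysteine protease inhibitor, rose by 2.59 ± 0.17 in knockout against 6.75 ± 0.16 in wild type cells (difference -4.16 ± 0.23, adjusted p = 1.52e-07), Il10 by 3.65 ± 0.13 against 7.79 ± 0.12 (-4.14 ± 0.17) and the RNA U90926 by 7.05 ± 0.22 against 11.17 ± 0.21 (-4.12 ± 0.30). The IL-10 relative Il19 rose by 2.0 ± 0.33 against 5.77 ± 0.30 (-3.77 ± 0.45), the activin subunit Inhba by 4.38 ± 0.22 against 7.93 ± 0.21 (-3.55 ± 0.30) and cyclin D2, Ccnd2, by 2.79 ± 0.15 against 6.27 ± 0.14 (-3.48 ± 0.21). Another probe of Il19, at background on all untreated arrays of both genotypes, gave 4.71 against 8.68 (-3.97 ± 0.12). Csta2 was well above background on 1 untreated knockout array, U90926 on 1 and Inhba on none, so these sizes depend on the floor. On the LPS arrays of knockout cells Ccnd2 stood at 2.92, 2.56 and 3.19.

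In 69 genes the response was a fall in knockout and a rise in wild type cells with a difference that passed. Zfp36l1, an RNA-binding factor of mRNA decay, stood at 5.36, 5.24, 5.59 and 4.96 untreated and 1.58, 1.77 and 1.77 with LPS in knockout cells (-3.58 ± 0.16) and rose by 0.55 ± 0.15 in wild type cells (difference -4.13 ± 0.22, adjusted p = 1.14e-07). The difference for Irf8 was -2.76 ± 0.20, with 0.49 ± 0.14 in wild type cells. Inpp1, an inositol phosphatase, differed by -2.50 ± 0.20, Adap2 by -2.57 ± 0.24, Cep112 by -2.40 ± 0.24 and Oip5 by -2.51 ± 0.48. The last 2 were at background on all LPS arrays of knockout cells, and Cep112 was well above it on only 2 untreated and 1 LPS array of wild type cells. Irs2, an insulin receptor substrate, differed by -3.33 ± 0.34, but its own fall of 0.83 ± 0.25 in knockout cells lost its call without LPS replicate 3 (-0.70).

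Higher responses were led by Sh2d4a, an adaptor, with 5.27 ± 0.46 against 1.39 ± 0.42 (difference 3.88 ± 0.62, adjusted p = 0.00144). Gfi1 gave 8.33 ± 0.20 against 4.88 ± 0.19 (3.45 ± 0.28), the thrombin receptor F2r 5.26 ± 0.14 against 2.08 ± 0.13 (3.17 ± 0.18) and Inava 4.88 ± 0.33 against 1.75 ± 0.30 (3.12 ± 0.45). Of the untreated wild type arrays 1 was well above background for F2r and 2 for Inava. Tnfrsf25, a death receptor, was at the floor on all untreated arrays and at -1.56, -1.53 and -1.67 with LPS, at least 14.4-fold higher. It was well above background on no wild type array, so its wild type response is set by the floor and the difference of 2.91 ± 0.11 has no settled size. Egr2 differed by 2.84 ± 0.39, the CSF1R ligand Il34 by 2.76 ± 0.50, against wild type arrays of which only 1, with LPS, was well above background, and Nos2 by 1.99 ± 0.26.

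In 14 genes the knockout response was a rise and the wild type response a fall, with a difference that passed. The ETS factor Spib rose from -3.94, -4.41, -3.94 and -3.81 to -2.42, -2.12 and -2.43 (1.70 ± 0.37) and gave -0.97 ± 0.34 in wild type cells. Ppargc1b, a coactivator of mitochondrial genes, rose by 0.97 ± 0.16 against -1.38 ± 0.14, Usp53 by 1.07 ± 0.14 against -1.08 ± 0.13, the transporter Slc6a13 by 0.90 ± 0.18 against -1.21 ± 0.16 and the zinc transporter Slc39a13 by 1.13 ± 0.20 against -0.49 ± 0.19. Myo19 rose by 0.71 ± 0.18 against -0.47 ± 0.16. Ppargc1b was well above background on only 1 wild type array with LPS, so the size of its fall there depends on the floor. Gm10638 (0.57 ± 0.20) lost its call without untreated replicate 4, LPS replicate 2 or LPS replicate 3 (0.49, 0.46 and 0.51). Pigw (0.60 ± 0.24, adjusted p = 0.0499) lost it without any array but LPS replicate 2 (0.37 to 0.65).

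Markers of other cell types were followed in the same way. As levels summed on the linear scale over the 75th percentile, the 8 kept of 13 T and NK cell markers came to 1.14 to 2.01 untreated and 3.62 to 4.56 with LPS, with 2 rises, or 1 without untreated replicate 1, 2 or 3 or LPS replicate 3 or 4. Lck, a T cell kinase, rose from -2.27, -2.47, -2.21 and -2.39 to 1.34, 1.06 and 0.80, while Cd3e, which defines T cells, did not pass at 0.43 ± 0.21 and Cd3d and Cd3g had no kept probe. The 9 kept of 10 stromal markers came to 4.24 to 5.71 untreated and 19.5 to 22.0 with LPS, with 3 rises. The growth factor receptor Pdgfrb rose from -2.56, -2.24, -1.96 and -2.60 to 3.90, 3.62 and 3.76 (6.10 ± 0.18). The collagen Col1a1 did not pass at 0.46 ± 0.32. With LPS, Pdgfrb made up most of the stromal sum and Lck a large part of the T and NK cell sum. These 2 sums therefore do not show a rise of their lists as a whole. For the sums that follow, the part of single genes was not counted, so they do not show it either. The 6 kept of 11 neutrophil markers came to 37.9 to 74.8 and 68.7 to 81.3, with 3 rises, among them Camp (2.74 ± 0.19) and S100a8 (1.47 ± 0.16), and Ly6g and Mpo had no kept probe. The 6 kept of 10 dendritic cell markers came to 102.0 to 180.0 and 171.0 to 234.0, with 4 rises, or 2 without untreated replicate 4. The 4 kept of 8 B cell markers came to 88.3 to 126.0 and 148.0 to 173.0, with 2 rises (1 without untreated replicate 2, 0 without LPS replicate 2 or 3) and 1 fall, that of Cd79b (-2.05 ± 0.19), and Ms4a1 had no kept probe. The 6 kept of 11 erythroid and megakaryocyte markers came to 71.3 to 89.7 and 122.0 to 145.0, with 2 rises and 1 fall, and the 2 kept of 9 mast cell markers to 0.136 to 0.226 and 0.283 to 0.369, with 1 rise. The part of other cell types in the results was not tested.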

How the data were processed

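The signals were made by the submitters with Agilent Feature Extraction 10.7.3.1 from single-colour (Cy3) mouse arrays, per the file headers. The deposited processed signal intensity, already background-corrected, was used, and the deposited value table of the series, on a log2 scale, served as an alternative. Control spots were left out, and spots marked as outliers were set to missing (0.609% of the knockout values). Each signal was divided by its array's 75th percentile, raised to at least 0.0442 and converted to log2. Probes with 1 mouse symbol through RefSeq numbered 26582 of 55681. A probe was kept if well above background on 3 or more arrays of 1 group, and the brightest kept probe stood for its gene. The 3484 genes with several kept probes included 74 whose probes were called in opposite directions. limma 3.58.1 in R 4.3.3 fitted 4 group means over all 15 arrays, with Benjamini-Hochberg adjustment. The fit was tested on simulated data. The number of arrays limits the precision.

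"At least N-fold" compares the brighter group's mean with the mean, over arrays, of the higher of the dim probe's own value and the lowest signal among probes well above background. The genes and lists were chosen with earlier results of these data known. Genes were named if among the 12 largest rises or falls, the 8 largest bounds each way, the largest changes of a list, the 8 largest differences or opposite responses each way, or the 6 largest noncoding changes each way. Members of lists that were outside this rule were picked after their values were seen. The 12 largest rises and falls were ranked among genes above background in both groups whose arrays did not overlap. Alternatives covered scaling, background, the value table, dim-probe filters, the floor, probe averaging, knockout arrays alone, a replicate block and leaving out each array. A few genes that these rules name are not reported here.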

Additional observations from a re-analysis of the deposited data

Results flagged for a closer look

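In 18 of 234 genes named above with 4 untreated values, 1 untreated knockout array stood apart from the other 3 by Dixon's test, which chance gives for about 1 in 20 such groups. Untreated replicate 3 was that array in 14 of them. Its level was below the others for Csf1r (1.81, others 8.01 to 9.13), Gbp2 (-3.32, others 3.0 to 3.46), Gm6524 (-3.75, others 3.13 to 3.46), Ikbke (-3.37, others 3.56 to 3.97), Map3k7 (-2.31, others 2.50 to 3.04), Mki67 (-1.77, others 2.19 to 2.65), Ptges (-1.80, others 5.12 to 5.23) and Ticam2 (-1.95, others -1.58 to -1.53). It was above the others for F2r (-4.28, others -4.50 to -4.50), Gbp5 (-0.94, others -2.06 to -1.94), Il34 (-2.44, others -4.50 to -4.29), Inhba (-3.69, others -4.50 to -4.50), Jun (3.40, others 2.34 to 2.44) and Slamf1 (-3.43, others -4.50 to -4.50). On replicate 1, Csta2 stood at -4.44, against -4.50 to -4.49 on the others. On replicate 2, Cx3cr1 stood at 6.92, against 7.38 to 7.46 on the others. On replicate 4, Il1bos stood at -1.46, against -3.39 to -3.1 on the others. On replicate 2, U90926 stood at -3.49, against -4.50 on the others. For 5 of these genes, Csta2, F2r, Inhba, Slamf1 and U90926, 2 or more untreated values lay at the floor, where any value above it stands apart. Among the genes without this, 13 of 226 remain. 

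Of the genes named above, 90 of 260 differed in their response between knockout and wild type cells by the interaction in the limma fit at an adjusted p under 0.05. Many were named for that difference, and genotype and slide cannot be told apart. Where a group lay at background, as Tnfrsf25 did on all wild type arrays, the size depends on the floor. The 36 higher responses, as knockout minus wild type log2 fold change, ran from 0.74 to 3.88. They were, in falling order, Sh2d4a 3.88, Gfi1 3.45, F2r 3.17, Inava 3.12, Tnfrsf25 2.91, Egr2 2.84, Il34 2.76, Spib 2.67, Ppargc1b 2.35, Cxcl10 2.30, Ccl17 2.22 and Pdgfrb 2.18. Next were Usp53 2.15, Slc6a13 2.11, Nos2 1.99, Isg15 1.89, Rsad2 1.65, Slc39a13 1.62, Gm10638 1.50, Pigw 1.27, Adamts4 1.26, Tnfsf10 1.26, Lyz2 1.24 and Ifit1 1.21. Then came Cmpk2 1.18, Myo19 1.18, Gbp5 1.16, Plat 1.12, Ifit3 1.09, Oasl1 0.99, Adm 0.97, Cd79b 0.93, Cxcr4 0.91, Cfb 0.86, Vcam1 0.80 and Ptafr 0.74. The 54 lower responses ran from -4.16 to -0.65. The largest were Csta2 -4.16, Il10 -4.14, Zfp36l1 -4.13, U90926 -4.12, Il19 -3.77, Inhba -3.55, Ccnd2 -3.48, Irs2 -3.33, Irf8 -2.76, F630028O10Rik -2.66, Adap2 -2.57 and Junb -2.54. Smaller ones were Oip5 -2.51, Inpp1 -2.50, Il23a -2.50, Edn1 -2.42, Cep112 -2.40, Dusp5 -2.29, Csf3 -2.27, Dusp6 -2.01, F3 -1.91, Batf3 -1.73, Dusp7 -1.72 and Cd300lb -1.62. Below these stood Has1 -1.55, Il1f6 -1.45, Atf3 -1.45, Slc40a1 -1.44, Pla2g4a -1.40, S100a8 -1.27, Il27 -1.27, Etl4 -1.25, Cebpa -1.22, Fam214a -1.19, Mertk -1.13 and Cish -0.99. These preceded Pisd-ps3 -0.93, Otulinl -0.91, Rassf3 -0.91, Zfp810 -0.91, Angptl4 -0.87, Nlrc4 -0.84, Fcgr1 -0.84, Pfkfb3 -0.83, Ccna2 -0.82, Dusp1 -0.81, Ifnb1 -0.78 and Slc7a2 -0.76. Further down stood Stat5a -0.76, Ttc30b -0.73, Upp1 -0.72, Irak4 -0.68, Pfkm -0.66 and Gas6 -0.65. The difference did not pass on another probe of Vcam1 (0.22) or on the other probes of Etl4 (-0.74 and -0.69).

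Probes that no single RefSeq symbol names were left out of the comparison. Of 14168 such probes tested in the same way, 4150 rose and 1842 fell with LPS in knockout cells. As a share of probes, the rises were near the 31.1% of all named genes and the falls below their 28.0%.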

How the results depend on the processing

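Of 260 genes named above, 233 kept their direction and their side of the threshold under all alternatives that could give them a value, and 27 did not in at least 1. The count of rises was 2050 in the deposited value table, which holds 11894 of the genes, against 4407, and 2209 when a change of at least 2-fold was also asked for. The count of falls was 2268 with that fold. Quantile normalisation gave 3009 rises and 5205 falls, and of the 6907 genes called in both scalings 22 had opposite directions. Leaving out each knockout array in turn gave 3843 to 4521 rises and 3542 to 3976 falls. Of the higher responses, 355 here, the value table gave 111, probes well above background on all 7 knockout arrays 233 and values with no common floor 225, with 250 to 372 when single arrays were left out. Of the lower responses, 1117 here, 743 were left after quantile normalisation and 416 in the value table, with 654 to 1097 when single arrays were left out. Direction turned for Lyz1 (-0.00088), Mapk14 (0.40) and Tlr13 (0.45) in the value table and for Ddx3y (-0.23) after quantile normalisation. Of the named genes, 10 lost their call in the value table. The log2 fold change there was larger for Irak3 (2.72 against 1.68 here) and close for Gm6524 (3.27 against 3.75) and Gm10638 (0.44 against 0.57). It was smaller for Elovl6 (-0.84 against -1.64), Gclm (-0.13 against -1.48), Ly96 (0.92 against 1.49), Myo19 (0.22 against 0.71), Pigw (0.34 against 0.60), Slc39a13 (0.28 against 1.13) and Tlr4 (0.64 against 1.02). The cause was not tested. Same-numbered knockout arrays did not deviate together in every case (correlations of 0.331, -0.0048 and 0.111), so the numbers were not taken as pairs. With the replicate number as a block, on the knockout arrays alone, 3908 genes rose and 3562 fell, and 8 of the named genes lost their call. Sizes are least certain for genes near the floor.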
